A study of Mus musculus with 4 samples.

Results

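The cytosolic heat shock system was examined in the retina of mice with the rhodopsin mutation Q344X, through 10 genes chosen by name: Hsf1, Hspa1a, Hspa1b, Hspa8, Hsph1, Dnajb1, Hspb1, Hsp90aa1, Hsp90ab1 and Bag3. All 10 were found among the 52636 genes of the deposited table, and all 10 passed the filter on low values, which kept 16833 genes for testing. The Q344X group held 2 libraries and the WT group 2, each from retinal tissue of 3-week-old mice. In patients this mutation causes a dominant form of retinitis pigmentosa, in which photoreceptors are lost. It removes the end of the rhodopsin protein that carries its signal for transport to the outer segment. The sources used here do not state the number of mutant alleles, how the allele was made, or the strain, sex and litter of the mice. The design text plans 3 replicates per genotype and counts 2 animals each in the final analysis, after samples with poor RNA and outliers were removed. The extraction protocol instead lists 3 mutant and 2 wild-type mice. The replicate numbers used here only name the libraries of a genotype, in the order of their accessions. Which animal each library came from is not stated, so p-values measure only the spread between these libraries.

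Cells answer misfolded protein in the cytosol through heat shock factor 1, encoded by Hsf1, which forms trimers and binds arrays of the unit nGAAn in front of chaperone genes. The HSP70 chaperones bind exposed hydrophobic stretches of client proteins. HSP40 proteins deliver clients to them, and nucleotide exchange factors of the HSP110 and BAG families release them again. HSP90 takes over clients that are close to their final fold, and small heat shock proteins hold unfolded clients without using ATP. Chaperones of these families have been studied in photoreceptors because rods make rhodopsin in large amounts and because several rhodopsin mutations yield protein that misfolds or reaches the wrong compartment.

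The sequence in front of 4 members is shown because it holds letters that match a pair of the heat shock factor's units and because Hspa1a and Hspa1b can hardly be told apart there. Each window covers the 250 bases before the transcription start in RefSeq's promoter table (GRCm38.p6), 5′ to 3′ on the gene's own strand. Capitals mark each match to GAANNTTC or TTCNNGAA, that is, a pair of units in opposite orientation. Both patterns read the same on either strand.
Hspa1a, chr17:34972157-34972406, minus strand: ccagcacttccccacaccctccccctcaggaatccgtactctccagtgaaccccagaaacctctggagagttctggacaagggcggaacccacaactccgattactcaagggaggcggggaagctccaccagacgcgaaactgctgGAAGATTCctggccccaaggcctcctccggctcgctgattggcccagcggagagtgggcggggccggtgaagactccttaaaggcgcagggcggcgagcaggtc
Hspa1b, chr17:34959239-34959488, minus strand: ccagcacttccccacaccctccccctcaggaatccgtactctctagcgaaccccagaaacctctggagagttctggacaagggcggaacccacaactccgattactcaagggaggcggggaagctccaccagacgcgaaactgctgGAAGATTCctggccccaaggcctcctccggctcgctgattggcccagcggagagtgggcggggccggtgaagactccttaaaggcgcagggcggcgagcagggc
Hsph1, chr5:149636337-149636586, minus strand: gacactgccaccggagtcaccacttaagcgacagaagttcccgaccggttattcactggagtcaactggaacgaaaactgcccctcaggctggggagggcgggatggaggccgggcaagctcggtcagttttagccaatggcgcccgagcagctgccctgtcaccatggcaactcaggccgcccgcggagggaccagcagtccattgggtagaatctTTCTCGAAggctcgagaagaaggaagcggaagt
Hspb1, chr5:135887669-135887918, plus strand: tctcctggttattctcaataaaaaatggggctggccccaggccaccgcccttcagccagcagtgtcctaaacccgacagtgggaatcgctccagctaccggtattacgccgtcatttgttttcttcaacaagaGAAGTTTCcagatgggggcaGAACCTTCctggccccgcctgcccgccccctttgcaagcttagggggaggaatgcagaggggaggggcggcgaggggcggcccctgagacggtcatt

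Of the 10 members, 6 had an entry in the promoter table, and 4 of these, the ones shown, held at least 1 match. A match was found in 12.8% of all 32851 windows of this length in the table. These windows belong to 27025 genes, so this share is per window, while the members were counted per gene. Hspa1a and Hspa1b carried the same element, GAAGATTC, at the same place, from base 104 to base 97 before the start, and their windows were identical at 247 of 250 positions. Hspb1 held 2 elements, GAAGTTTC and GAACCTTC, and Hsph1 held TTCTCGAA, 33 to 26 bases before the start shown. No window of a member held 3 alternating units in a row, spelled GAANNTTCNNGAA or TTCNNGAANNTTC, as 0.466% of all windows did. The windows of Bag3 and Dnajb1 held neither pattern. Hsf1, Hspa8, Hsp90aa1 and Hsp90ab1 had no entry.

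In the Q344X retina, 1 of the 10 genes fell, Hspa1a, and 0 rose (limma, adjusted p under 0.05), so the other 9 did not pass. Among all genes tested, 9.1% were lower and 5.46% were higher by this test, 14.6% in either direction. With p unadjusted, 3 members were under 0.05, Hspa1a and Hsph1 with lower and Hsp90ab1 with higher values, against 34.7% of all genes. The log2 fold change was below 0 for 8 members and above 0 for 2, Hsp90ab1 and Dnajb1, while 48.8% of all genes were below 0. The median over the members was -0.44 and that over all genes 0.02. For 8 members the Q344X libraries lay entirely on one side of the WT libraries, below them for 6 and above them for 2. The same held for 63.1% of all genes, 31.7% below and 31.4% above. With genes corrected for length and GC content, 2004 genes were higher and 1953 lower in Q344X, against 919 higher and 1531 lower without it. Every log2 fold change is a difference of log2(normalized count + 1), Q344X minus WT, where a normalized count is a read count divided by the library's size factor. Each library held 18452679 to 19706573 reads in genes, and a normalized count was worth about 1 read.

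**Figure D1:**
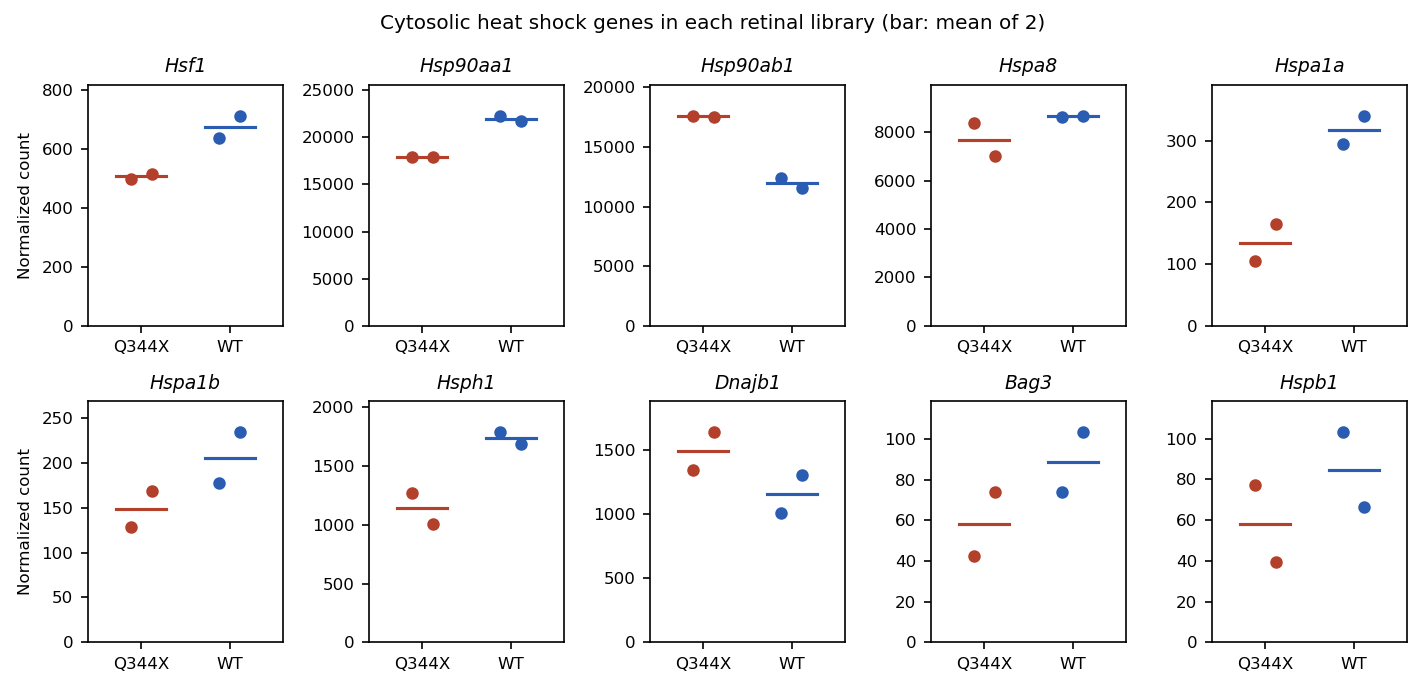
Normalized count of each of the 10 genes in every library, with Q344X at the left and WT at the right of each panel; points are libraries, bars are means of 2, and every axis starts at 0. The Q344X points lie below the WT points for 6 genes, above them for Hsp90ab1 and Dnajb1, and overlap with them for Bag3 and Hspb1.

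The regulator itself did not pass the test. Hsf1 (ENSMUSG00000022556, chromosome 15, 76477422 to 76501913, GRCm38) had 497 and 515 normalized counts in the Q344X libraries, against 635 and 711 in the WT libraries. Both Q344X libraries were below both WT libraries. Its log2 fold change of -0.41 ± 0.18 (SE) had a 95% interval of -0.85 to 0.03 and adjusted p = 0.169 (limma). Of 6 other heat shock factors and their regulators, 5 were tested and none passed (limma, 1 with unadjusted p under 0.05, median -0.11). Over all genes 14.6% passed and 34.7% had unadjusted p under 0.05. Hsbp1, which encodes a protein that binds and restrains heat shock factor 1, had 0.49 ± 0.23 and Hsf2, a second heat shock factor, had 0.19 ± 0.22. Hsbp1l1, a gene related to Hsbp1, had -0.59 ± 0.23. With 1 library left out, the log2 fold change ranged from 0.22 to 0.76 for Hsbp1 and from -0.82 to -0.36 for Hsbp1l1. For Hsf4 it was -1.56 without Q344X replicate 1 and 0.48 without Q344X replicate 2. These 2 libraries differed in lens markers, which summed to 123319 normalized counts in replicate 1 and 2343 in replicate 2. The part of lens RNA in these values was not tested.

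Hspa1a (ENSMUSG00000091971, chromosome 17, 34969190 to 34972156), which encodes the stress-inducible HSP70, was the member that fell. It had 105 and 165 normalized counts in the Q344X libraries, against 294 and 340 in the WT libraries. The higher Q344X library was thus well below the lower WT library. It had a log2 fold change of -1.26 ± 0.28 (SE), or 0.418-fold on the log2(normalized count + 1) scale, a 95% interval of -1.94 to -0.57 and adjusted p = 0.0377 (limma). Its neighbour and copy Hspa1b (ENSMUSG00000090877, 34956436 to 34959238) had 129 and 168 normalized counts in Q344X, against 178 and 234 in WT. The genotypes did not overlap there either, but the gap between them was smaller than the range within WT. Hspa1b did not pass, at a log2 fold change of -0.47 ± 0.26 and adjusted p = 0.247.

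Reads of these copies are hard to assign. Their coding sequences were identical at 99.4% of 1929 aligned positions, and 62.3% of the 50-base stretches of the Hspa1b transcript occur in that of Hspa1a. The sources used here do not say how reads that match both were counted, so the values of the single copies are uncertain. The 2 genes summed had 234 and 333 normalized counts in Q344X, against 472 and 574 in WT. As 1 gene they had a log2 fold change of -0.90 ± 0.25 and adjusted p = 0.0626, which did not pass. The call of Hspa1a also ended with quantile normalization (adjusted p = 0.0561), without the filter on low values (0.0978) and without WT replicate 2 (0.0957). A coding gene on the other strand, Gm20481, overlaps Hspa1a over 2225 bases but had at most 2.88 normalized counts in any library.

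Hspa8 (ENSMUSG00000015656, chromosome 9, 40800984 to 40810087) encodes HSC70, the HSP70 protein that cells make without stress. It had 8366 and 7014 normalized counts in Q344X libraries, against 8635 and 8667 in WT libraries. The Q344X libraries were lower but further from each other than the nearer of them was from WT. The log2 fold change was -0.18 ± 0.18 (adjusted p = 0.531), with a 95% interval of -0.62 to 0.27. A processed pseudogene, Gm15459, shares 70.0% of the 50-base stretches of Hspa8 and was counted at 2256 and 1445 in Q344X and at 2495 and 1770 in WT. Summed with it, Hspa8 had a log2 fold change of -0.19 ± 0.20. Per exon length, Hspa1a and Hspa1b together stood at 0.0418 and 0.0709 of Hspa8 in the Q344X libraries, against 0.0810 and 0.0982 in the WT libraries. Taken from normalized counts + 1 without exon lengths, the log2 difference of the ratio was -0.72. The ratio per exon length had p = 0.333 in an exact two-sided permutation test, the smallest that 2 against 2 libraries can give.

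Among the members, none of the factors that work with HSP70 passed the test. Hsph1 (ENSMUSG00000029657, chromosome 5, 149614287 to 149636376), which encodes HSP110, a nucleotide exchange factor of HSP70, had 1271 and 1007 normalized counts in Q344X, against 1784 and 1686 in WT. Both Q344X libraries were below both WT libraries. With a log2 fold change of -0.62 ± 0.19 (SE), a 95% interval of -1.09 to -0.14 and adjusted p = 0.0834 (limma), it did not pass. With 1 library left out, the log2 fold change of Hsph1 ranged from -0.78 to -0.45. Dnajb1 (ENSMUSG00000005483, chromosome 8, 83608193 to 83612653), the classical inducible HSP40, had 1344 and 1637 normalized counts in Q344X, against 1012 and 1302 in WT. The lower Q344X library was only slightly above the higher WT library. Dnajb1 did not pass (0.37 ± 0.21, adjusted p = 0.269). Bag3 (ENSMUSG00000030847, chromosome 7, 128523616 to 128546981), which couples HSP70 to selective autophagy, had 42.6 and 73.9 normalized counts in Q344X, against 73.8 and 103 in WT. The genotypes met at about 74, and the log2 fold change was -0.63 ± 0.36 (adjusted p = 0.268).

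**Figure D2:**
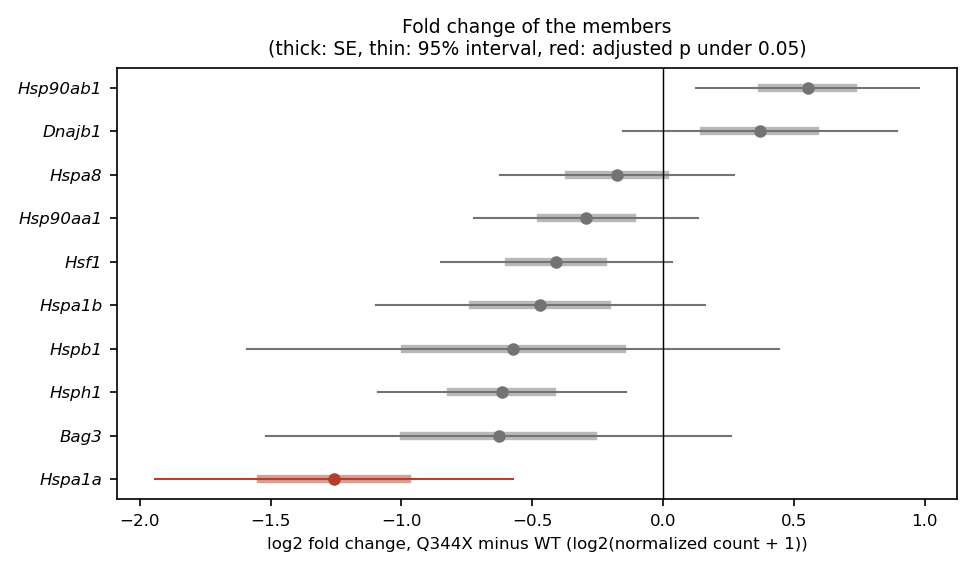
Log2 fold change of each member, Q344X minus WT; thick lines are the SE, thin lines the 95% interval of the moderated test, and red marks adjusted p under 0.05. Hspa1a at -1.26 is the gene in red, and Hsph1 and Hsp90ab1 have intervals that leave out 0 without passing the adjusted threshold.

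The HSP90 paralogs had values on opposite sides of WT. Hsp90aa1 (ENSMUSG00000021270, chromosome 12, 110690605 to 110702728) encodes the inducible HSP90 and Hsp90ab1 (ENSMUSG00000023944, chromosome 17, 45567775 to 45573271) the constitutive one. Hsp90aa1 had 17914 and 17918 normalized counts in Q344X, against 22243 and 21661 in WT. Its log2 fold change of -0.29 ± 0.17 (SE) had a 95% interval of -0.72 to 0.14 and adjusted p = 0.282 (limma). Hsp90ab1 had 17601 and 17526 normalized counts in Q344X, against 12361 and 11595 in WT. Its log2 fold change was 0.55 ± 0.17, with a 95% interval of 0.13 to 0.98 and adjusted p = 0.0829. It passed, as higher in Q344X, when each library was corrected for gene length and GC content (limma adjusted p = 0.0443). In that fit 2004 of all genes were higher, against 919 without the correction. Over the alternatives that kept all 4 libraries, the log2 fold change ranged from -0.35 to -0.07 for Hsp90aa1 and from 0.49 to 0.63 for Hsp90ab1.

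In both genes the 2 libraries of a genotype lay close together compared with the gap between the genotypes. The sum of the 2 genes was 35480 ± 50.1 normalized counts in Q344X and 33930 ± 953 in WT (SD, n = 2), a ratio of 1.05. Their balance differed more. Hsp90aa1 over Hsp90ab1, per exon length, was 0.776 and 0.780 in the Q344X libraries, against 1.37 and 1.43 in the WT libraries. On the log2 scale the difference of this ratio was -0.85, between -0.87 and -0.82 when any 1 library was left out, and -0.70 after quantile normalization. The exact permutation p was 0.333, the smallest possible. The size of the ratio is less sure than its difference, since 51.5% of the 50-base stretches of the Hsp90aa1 transcript also occur in the processed pseudogene Gm12346, which was counted at 50.5 and 58.5 in Q344X and at 64.5 and 78.2 in WT. For Hsp90ab1, 4.49% of the stretches occur in other genes.

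**Figure D3:**
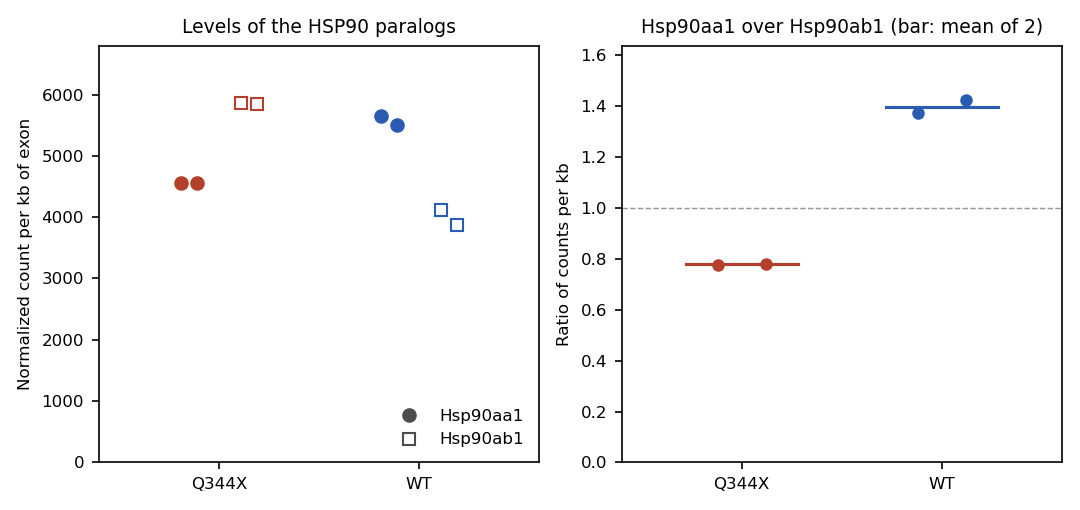
Left, normalized count per kilobase of exon for Hsp90aa1 (filled circles) and Hsp90ab1 (open squares) in each library; right, their ratio per library with the mean of 2 as a bar and a dashed line at 1. The ratio is 0.776 and 0.780 in the Q344X libraries and 1.37 and 1.43 in the WT libraries.

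Hspb1 (ENSMUSG00000004951, chromosome 5, 135887919 to 135889563) encodes HSP27 (HSP25 in the mouse), a small heat shock protein. It was listed at 77.2 and 39.4 normalized counts in Q344X, against 103 and 66.2 in WT. The genotypes overlapped, and their own libraries differed 1.96-fold in Q344X and 1.56-fold in WT. The difference of -0.57 ± 0.41 (SE, log2) had a 95% interval of -1.59 to 0.45 and adjusted p = 0.368 (limma). With 1 library left out, the log2 fold change of Hspb1 ranged from -1.05 to -0.0954. Of the 50-base stretches of its transcript, 51.7% occur in the pseudogene Hsp25-ps1, which had at most 2.01 normalized counts.

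The members differed widely in level. As normalized counts per kilobase of annotated exon, the mean in Q344X was 5856 for Hsp90ab1, 4558 for Hsp90aa1 and 1788 for Hspa8, and in WT it was 3994, 5584 and 2011 for the same genes. Dnajb1 followed with 465 in Q344X and 361 in WT, and Hsph1 with 157 in Q344X and 239 in WT. The remaining 5 lay between 22.7 for Bag3 and 71.3 for Hsf1 in Q344X, and between 34.6 for Bag3 and 107 for Hspa1a in WT. By mean, the order of the remaining genes was Hsf1, Hspb1, Hspa1b, Hspa1a and Bag3 in Q344X, and Hspa1a, Hsf1, Hspb1, Hspa1b and Bag3 in WT. Next neighbours in these orders overlapped, except that Bag3 lay below the others in both genotypes. Hsf1 did not overlap with Hspa1b in either genotype, nor Hspa1a with Hspa1b in WT. The libraries of the first 5 genes did not overlap within a genotype, with Hsp90ab1 first in Q344X and Hsp90aa1 first in WT. HSP90 and HSC70 genes stood far above the inducible HSP70 genes in both genotypes. Exon lengths were the union over all annotated transcripts, 7099 bases for Hsf1 and 7266 for Hsph1, so levels of genes with long unused exons are understated.

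Among the small heat shock genes beyond Hspb1, Hspb6 fell. Of 7 listed, 6 were tested, 1 fell, 0 rose and 5 did not pass, with a median of -1.01 (limma, 3 with unadjusted p under 0.05). The log2 fold change was below 0 for 5 of the 6, against 48.8% of all genes. Over all genes 9.1% were called lower and 34.7% had unadjusted p under 0.05. In this list the number called lower was 1 under every alternative that kept all 4 libraries. Hspb6, which encodes HSP20, had 758 and 659 normalized counts in Q344X, against 1808 and 1719 in WT (log2 fold change -1.32 ± 0.18, adjusted p = 0.0124). The call held under all 12 alternatives tried for it, and 122 bases of the gene are shared with Proser3 on the other strand. Cryab, the small heat shock protein alpha-B crystallin, had 15519 and 2285 in Q344X, against 31308 and 37549 in WT, and -2.53 ± 0.83 did not pass (adjusted p = 0.0911). Cryaa, alpha-A crystallin, had 100435 and 3726 in Q344X, against 115632 and 122014 in WT (-2.62 ± 1.40, adjusted p = 0.238). Hspb8, the partner of BAG3, had 86.1 and 76.8 in Q344X, against 127 and 141 in WT (-0.71 ± 0.23, adjusted p = 0.0893).

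Lens markers set 1 library apart, Q344X replicate 2. The 9 lens markers, among them Mip, Lim2 and the beta and gamma crystallins, summed to 123319 and 2343 normalized counts in the Q344X libraries, against 105916 and 149295 in the WT libraries. None of the 9 was at 0 in all libraries and none passed (limma, 0 with unadjusted p under 0.05). Q344X replicate 2 was the library with the lowest lens markers, and it was also the lowest for Cryaa, Cryab, Hspb1 and Hsf4, a heat shock factor of the lens with 130 and 30.7 in Q344X, against 74.9 and 114 in WT. Without this library the log2 fold change of Cryaa was -0.24, against -4.99 without Q344X replicate 1, that of Hsf4 was 0.48, and Cryab passed as lower in Q344X (log2 fold change of Cryab -1.14, limma adjusted p = 0.00445). In the same fit the log2 fold change of Hspb1 was -0.0954, and the number of members lower in Q344X was still 1, again Hspa1a. Hspb6 was also lowest in Q344X replicate 2, at 659 normalized counts, against 758 in Q344X replicate 1 and 1808 and 1719 in WT. The part of lens RNA in these values was not tested.

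**Figure D4:**
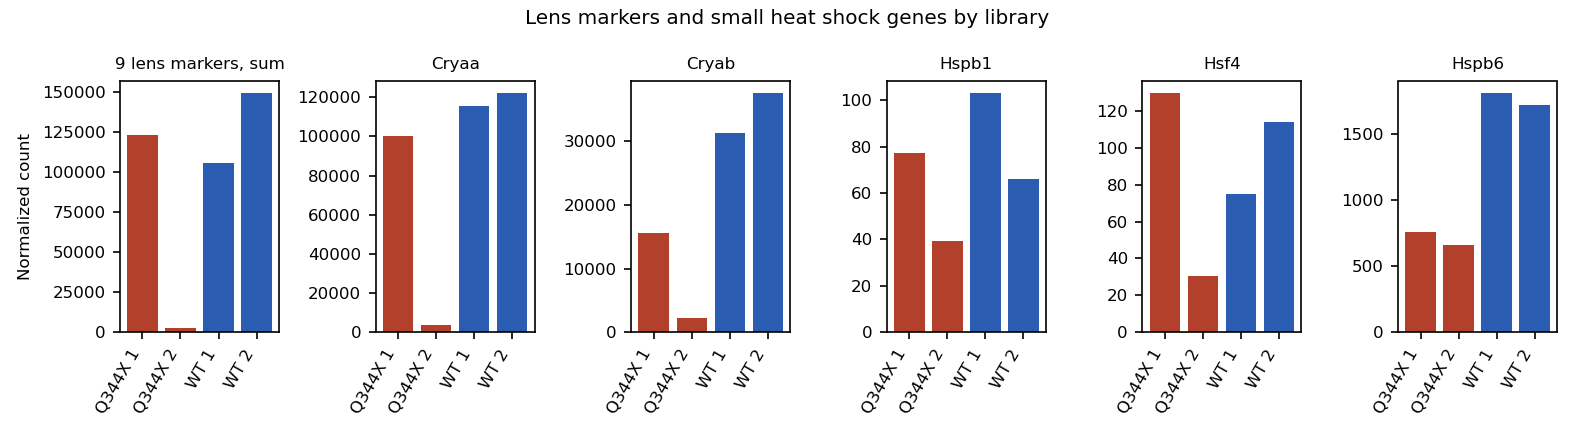
Normalized count per library of the summed 9 lens markers and of Cryaa, Cryab, Hspb1, Hsf4 and Hspb6; red bars are Q344X, blue bars WT, and every axis starts at 0. Q344X replicate 2 has the lowest bar in every panel, with 2343 for the lens markers. The Q344X bars of Hspb6 stand at 758 and 659.

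The wider chaperone network was described through 11 lists with 95 different tested genes beyond the members. Of these, 6 fell and 0 rose (limma), which is 6.32% against the 14.6% of all genes. Unadjusted p was under 0.05 for 24 of the 95, against 34.7% of all genes. The median log2 fold change of the 95 was 0.11, with 54 above and 41 below 0. The 6 that fell were Hspa4, Dnajb2, Aipl1, Hspb6, Clpb and Synpo2. Except for Hspb6, they lost their calls without the filter on low values (adjusted p = 0.0514 to 0.0876).

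Among 7 other HSP70 and HSP110 genes, 6 were tested, 1 fell, 0 rose and 5 did not pass (median -0.37, limma, 2 with unadjusted p under 0.05). Hspa4, an HSP110 relative of Hsph1, had 3099 and 2937 normalized counts in Q344X, against 5462 and 4855 in WT (log2 fold change -0.77 ± 0.17, SE, adjusted p = 0.0385). Leaving out WT replicate 1 (adjusted p = 0.323) or 2 (0.162) ended the call. The related Hspa4l had 6402 and 4608 in Q344X, against 8272 and 7936 in WT (-0.58 ± 0.22, adjusted p = 0.123). All 3 cytosolic HSP110 genes, Hsph1 included, had lower values in both Q344X libraries than in either WT library, and 1 of them passed. Lying entirely below WT was also seen in 31.7% of all genes. Of all genes, 9.1% were called lower and 34.7% had unadjusted p under 0.05. Hspa12a, a distant HSP70 relative, had -0.47 ± 0.27, and Hspa14 had 0.36 ± 0.18.

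Of 13 J-domain co-chaperones, 1 fell, 0 rose and 12 did not pass (median 0.15, limma, 3 with unadjusted p under 0.05). The shares over all genes were 9.1% lower, 5.46% higher and 34.7% with unadjusted p under 0.05. Dnajb2, also called HSJ1, is a neuronal co-chaperone known from cell culture to act on rhodopsin. It had 720 and 813 normalized counts in Q344X, against 1812 and 2275 in WT (log2 fold change -1.41 ± 0.20, SE, adjusted p = 0.0136). The Q344X libraries were thus below all WT values by a wide margin. The most abundant members of this list were Dnajc5, the synaptic vesicle protein CSP alpha, with 0.38 ± 0.18, Dnaja2 with 0.15 ± 0.19 and Dnajc6, the clathrin uncoating factor auxilin, with -0.07 ± 0.17, none past the threshold. Of 8 other factors that regulate the HSP70 cycle, none passed (limma, 0 with unadjusted p under 0.05, median 0.05). St13 had 0.11, Bag6 -0.06, Stub1, the ubiquitin ligase CHIP, -0.01 and Bag1 -0.16.

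Of 18 HSP90 co-chaperones, 1 fell, 0 rose and 17 did not pass (median 0.12, limma, 3 with unadjusted p under 0.05). Among all genes 9.1% were lower and 5.46% higher, and 34.7% had unadjusted p under 0.05. Aipl1, the photoreceptor co-chaperone required for making phosphodiesterase 6, had 9093 and 9713 normalized counts in Q344X, against 15711 and 17208 in WT (log2 fold change -0.81 ± 0.18, SE, adjusted p = 0.0366). The call ended with WT replicate 1 (adjusted p = 0.159) or 2 (0.237) left out, and with quantile normalization (0.0567). Fkbp4, an immunophilin, had -0.18 ± 0.20, Fkbp8, its relative on the mitochondrial surface, 0.33 ± 0.24 and Cdc37, which brings kinases to HSP90, -0.05 ± 0.16.

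**Figure D5:**
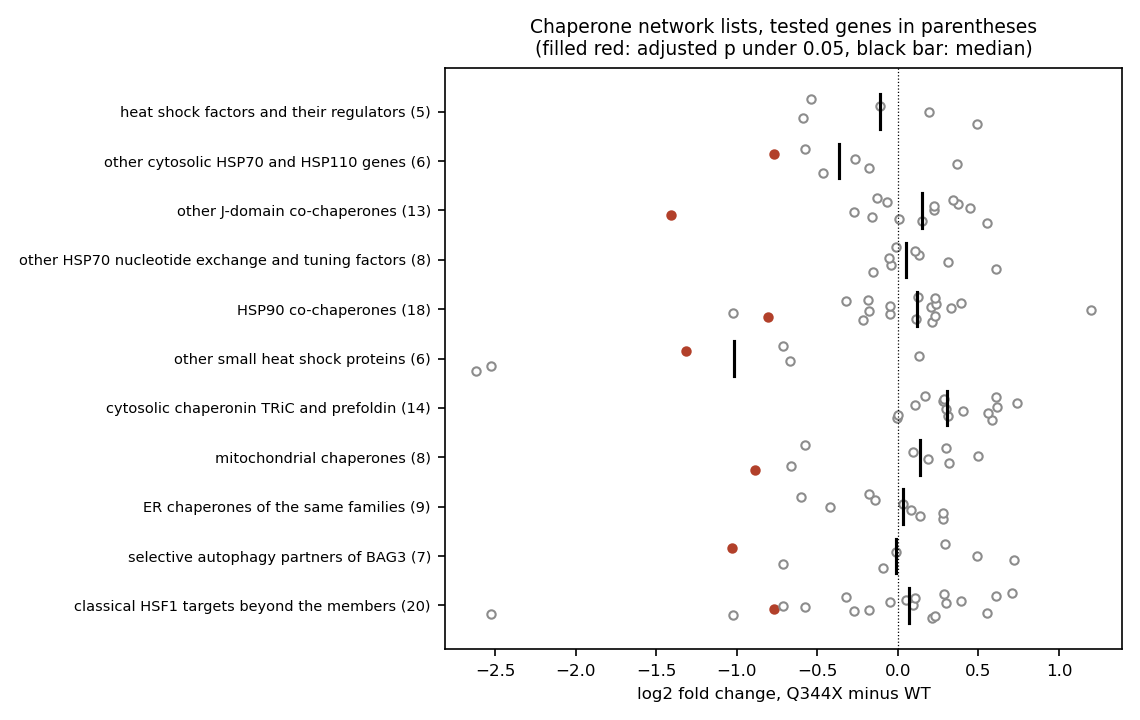
Log2 fold change, Q344X minus WT, of each tested gene in 11 lists of the chaperone network; filled red points have adjusted p under 0.05 and black bars are list medians. Red points lie at negative values in every list that has one. The chaperonin and prefoldin list has 12 of 14 genes above 0 with none red, and 8616 of all 16833 genes tested were above 0.

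The cytosolic chaperonin TRiC folds actin and tubulin, and prefoldin delivers clients to it. Of 14 subunits, none passed (limma, 4 with unadjusted p under 0.05), 12 had log2 fold changes above 0 and the median was 0.31. Over all genes 14.6% passed, 34.7% had unadjusted p under 0.05 and 8616 of 16833 were above 0. In 9 of the 14 both Q344X libraries were above both WT libraries, which 31.4% of all genes showed. With the length and GC correction, 3 of the subunits passed as higher, among them Tcp1 (limma adjusted p = 0.022) and Cct6a (0.0335). In that fit 2004 of all genes were higher, against 919 without the correction. Tcp1 had 5168 and 5081 normalized counts in Q344X, against 3370 and 3344 in WT (0.61 ± 0.16, SE, adjusted p = 0.0591). Cct6a had 0.56 ± 0.17 and Cct8 0.30 ± 0.17. Cct5 was near 0, with a log2 fold change of -0.0007 ± 0.22.

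Chaperones of the same families in other compartments were also listed. Over all genes, 9.1% were called lower, 5.46% were called higher and 34.7% had unadjusted p under 0.05. Of 8 mitochondrial chaperones, Clpb, a disaggregase of the space between the mitochondrial membranes, fell, 0 rose and 7 did not pass (median 0.14, limma, 4 with unadjusted p under 0.05). Clpb had 706 and 567 normalized counts in Q344X, against 1141 and 1206 in WT (log2 fold change -0.89 ± 0.19, SE, adjusted p = 0.0363), and did not pass without WT replicate 1 (0.145) or 2 (0.182). The mitochondrial HSP70 gene Hspa9 had 0.50 ± 0.17, the mitochondrial HSP90 gene Trap1 -0.58 ± 0.18 and Hspd1, the HSP60 gene, 0.09 ± 0.16. Of 9 chaperones of the endoplasmic reticulum, none passed (limma, 1 with unadjusted p under 0.05, median 0.03). Hsp90b1, the HSP90 of that compartment, had -0.42 ± 0.20 and Hspa5, its HSP70, -0.14 ± 0.17. Dnajc10 had 0.28 ± 0.18 and Dnajb11 0.28 ± 0.18.

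Of 7 partners of BAG3 in selective autophagy, Synpo2 fell, 0 rose and 6 did not pass (median -0.01, limma, 4 with unadjusted p under 0.05). For comparison, 9.1% of all genes were lower, 5.46% were higher and 34.7% had unadjusted p under 0.05. Synpo2, an actin-associated protein that binds BAG3, had 375 and 401 normalized counts in Q344X, against 764 and 826 in WT (log2 fold change -1.03 ± 0.18, SE, adjusted p = 0.0223), and lost its call without WT replicate 1 (0.0777) or 2 (0.122). Other annotated genes overlap Synpo2, over up to 2628 bases. The autophagy receptor gene Sqstm1 had 0.49 ± 0.16, Map1lc3b, an autophagosome protein gene, 0.72 ± 0.20 and Ywhag, a 14-3-3 gene, 0.29 ± 0.21. Of 20 further genes known as targets of heat shock factor 1, Hspa4 fell, 0 rose and 19 did not pass (median 0.07, limma, 7 with unadjusted p under 0.05), and the ubiquitin gene Ubb had 0.29 ± 0.27. Of these 20, 11 had log2 fold changes above 0 and 9 below.

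Markers of retinal cell types differed between the genotypes, and fewer cells of a type cannot be told apart from less RNA per cell in whole tissue. The retinal label was met by its rod markers, which summed to 418215 and 486051 normalized counts in Q344X, against 653313 and 737672 in WT. Lens markers were present as well, at 123319 and 2343 in Q344X, against 105916 and 149295 in WT. Of 12 rod markers 2 fell, of 7 cone markers 4, of 8 Müller glia markers 2, of 6 amacrine markers 1 and of 5 blood markers 2, with 0 higher in these lists (limma). Higher in Q344X were 2 of 8 ganglion cell, 1 of 7 bipolar, 3 of 7 tested pigment epithelium and 1 of 3 astrocyte markers, with 0 lower. Over all genes 9.1% were lower and 5.46% higher by this test, and 34.7% had unadjusted p under 0.05. No marker of microglia (0 of 8 with unadjusted p under 0.05) or endothelium (3 of 6) passed. The part of these shifts in the values of the heat shock genes was not tested.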

How the data were processed

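Poly-A selected RNA from retinas was made into directional libraries and sequenced on an Illumina instrument, per the labels' protocols. The deposited table holds a signal for each gene and library, a normalized count whose steps are those of read counts divided by a size factor per library. The submitters' processing notes name Trim Galore 0.4.4, FastQC, STAR, DESeq2 1.16.1, featureCounts and the build mm10, without their roles. The sources used here do not state the annotation, the strand setting or the treatment of reads with several matches. Values above 0 were whole multiples of a step per column within 0.1 of a read, which gives 18452679 to 19706573 reads in genes per library. For 2 of the 4 columns the step was close to 1 (0.9900 and 1.0026). A check of units did not accept these 2 as divided counts, so no count model was fitted.

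GENCODE M21 (GRCm38) supplied symbols, positions and exons for 52489 of 52636 genes. Testing required a mean of 10 normalized counts. Then limma 3.58.1 in R 4.3.3 was fitted to log2(normalized count + 1) on genotype, with trended variances (residual degrees of freedom 2, prior 3.90), two-sided p-values and Benjamini-Hochberg adjustment over all 16833 genes at 0.05. The procedure was tested on simulated counts that gave every gene the same dispersion. That run does not show how the calls behave at the spread of these libraries. Ratios were tested by exact permutation. Shared 50-base stretches of transcripts and promoter motifs were searched in Python 3.11.15. The other settings were pseudocounts of 0.5 and 5, a minimum mean of 50 or none, 75th percentile or quantile scaling, a loess correction for length and GC content, robust moderation, Hspa1a and Hspa1b summed, and each library left out. Adding Gm15459 to Hspa8 was chosen after seeing the data. The members, 11 chaperone lists, 2 stress lists and 12 marker lists were chosen with earlier results of these data known. From each pathway list up to 4 genes are named, called ones by size of change first and the most abundant after them. Names of lens markers serve only to describe that list.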

Additional observations from a re-analysis of the deposited data

How the results depend on the processing

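No paired analysis was possible because the labels give no replicate numbers, those used here being names given in accession order, and nothing links a Q344X to a WT library. No member changed direction in any of 123 recomputed values. The 1 member that fell was 0 without the filter on low values and with quantile normalization. The member count higher in Q344X was 1 with the length and GC correction. The median of the members, -0.44, was -0.50 with 75th percentile scaling and -0.32 with quantile normalization. Leaving out 1 library gave 0 to 3 members lower, the 3 being Hspa1a, Hsph1 and Hspb1 without Q344X replicate 1 and the 0 without WT replicate 2, and medians of -0.38 to -0.30. Such a fit assumes that the lone library varies like the intact pair. Over all genes, leaving out 1 library gave 555 to 2388 higher and 904 to 3045 lower genes. Without the filter there were 153 higher and 383 lower. Corrected for length and GC content, 2004 were higher and 1953 lower. The ratio of Hspa1a plus Hspa1b to Hspa8 ranged from -1.10 without Q344X replicate 2 to -0.34 without Q344X replicate 1.

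Among the 48 other named genes, direction changed with the length and GC correction for Dnajc6 (0.0576), Cdc37 (0.0592) and Cct5 (0.0882), none of them past the threshold. With 1 library left out it changed for Bag6 (-0.30 to 0.18), Stub1 (-0.22 to 0.20), Bag1 (-0.37 to 0.0611), Fkbp4 (-0.37 to 0.0066), Cct5 (-0.19 to 0.18), Hsf4 (-1.56 to 0.48), Dnajc6 (-0.15 to 0.0182), Ubb (-0.0448 to 0.62) and Hsf2 (-0.0216 to 0.41). Precision is set by 2 libraries per genotype, and the widest interval among the members was that of Hspb1, -1.59 to 0.45. Of the 576 recomputed values of these genes, 23 gained a call and 18 lost one. Gained calls with all 4 libraries and not given elsewhere were Map1lc3b and Hspa9 (higher) and Nr4a1 (lower), each with the length and GC correction. All gains beyond the length and GC correction came with 1 library left out. The cause of these differences was not tested.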

Other observations

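Genes of the oxidative stress response, a neighbouring pathway that answers electrophiles through the factor NRF2, gave no call with all 4 libraries and the settings of the report. Of 8 tested, 0 rose and 0 fell (limma, 3 with unadjusted p under 0.05, median 0.10). The shares over all genes were 5.46% higher, 9.1% lower and 34.7% with unadjusted p under 0.05. Srxn1, a sulfiredoxin, had 647 and 796 normalized counts in Q344X, against 1011 and 1362 in WT (log2 fold change -0.71 ± 0.23, SE, adjusted p = 0.0866), and Txnrd1, a thioredoxin reductase, had 0.38 ± 0.21. With the length and GC correction 2 genes passed as lower, Srxn1 among them (limma adjusted p = 0.0433). In that fit 1953 of all genes were lower and 2004 higher, against 1531 and 919 without the correction. With 1 library left out, the log2 fold change of Srxn1 ranged from -0.92 to -0.49. Gclc, a subunit of the enzyme that starts glutathione synthesis, had -0.22 ± 0.20.

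Immediate early genes, which respond within minutes to many stimuli, included a call in each direction. Of 11 listed, 9 were tested, 1 rose, 1 fell and 7 did not pass (median -0.52, limma, 4 with unadjusted p under 0.05). Over all genes 5.46% were higher, 9.1% were lower and 34.7% had unadjusted p under 0.05. Egr1 had 883 and 1200 normalized counts in Q344X, against 335 and 427 in WT (1.44 ± 0.24, SE, adjusted p = 0.0196). Atf3, a stress-induced transcription factor, had 61.4 and 101 in Q344X, against 192 and 287 in WT (-1.57 ± 0.34, adjusted p = 0.0358). The call of Atf3 ended without WT replicate 2 (adjusted p = 0.0813), with quantile normalization (0.0593) and without the filter (0.0992), and that of Egr1 without the filter (0.0649). With all 4 libraries, the number of these genes called lower was 0 to 4 over the alternatives, 4 with the length and GC correction. In that fit 1953 of all genes were lower, against 1531 without the correction. Jun had -0.52 ± 0.27 and Nr4a1 -0.73 ± 0.23.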
